A study of Mus musculus with 16 samples.

Results

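The interleukin system of medullary thymic epithelial cells (mTEC) was described from gene counts of the mouse thymus. The members were all Ensembl genes whose mouse symbol begins with Il and a number, with 1 symbol and the pseudogene symbols left out. This gave 82 of the 53464 Ensembl genes in the table, and each had at least 1 count in some library. By function they were 38 ligands and antagonists, 38 receptor chains, 4 soluble or decoy binders (Il1r2, Il18bp, Il13ra2 and Il22ra2) and 2 other genes, the amino acid oxidase gene Il4i1 and the antisense RNA Il1bos. The largest families were the IL-1 family, with 10 ligands and 8 receptor chains, the common gamma chain family with IL-13 (7 and 9) and the IL-6 and IL-12 family (7 and 9). The names Il1f5, Il1f6, Il1f8 and Il1f9 are older symbols of Il36rn, Il36a, Il36b and Il36g.

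RNA was sequenced from mature (MHCII high) and immature (MHCII low) mTEC, sorted from the thymus as CD45- EpCAM+ Ly51- UEA+ cells. In the Rbfox1 tKO, both Rbfox1 alleles were floxed and 1 Foxn1 allele carried Cre (lox/lox, Foxn1 wildtype/cre), and the Rbfox2 tKO was made in the same way for Rbfox2. The controls of each line had the same floxed alleles and 2 wild-type Foxn1 alleles, so the effects of Cre and of the deletion cannot be told apart. Foxn1-driven Cre acts in thymic epithelial cells. The methods give the controls as sex-matched littermates on a mixed strain background. Each genotype of each line had 2 mice, 1 female and 1 male, of 4 to 6 weeks per the labels, which give the strain as C57BL/6, and both populations came from the same 8 mice, giving 16 libraries. Total counts per library were 3737884 to 4636367 in mature and 1506134 to 2430287 in immature mTEC, so levels in immature cells were less precise. Levels are given as TMM-normalized CPM, which scales each count to the effective total of its library, and per kb of exon where genes are compared with each other.

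Interleukins are secreted proteins with which immune and epithelial cells signal to each other. Most act on receptors built from a specific chain and a chain shared by several cytokines: the common gamma chain (Il2rg) serves IL-2, IL-4, IL-7, IL-9, IL-15 and IL-21, and gp130 (Il6st) serves IL-6, IL-11 and IL-27. In the thymus, IL-7 from epithelial cells is needed for the survival of early thymocytes, and IL-15 for some innate-like lymphocytes. Mature mTEC also transcribe many genes of other tissues at low levels, in part under the regulator AIRE, so that developing T cells can be tested against them.

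Core promoters are shown first, because the share with a TATA motif, which places the start of transcription, was higher in ligands than in receptors. RefSeq promoters (GRCm38.p6, 250 bases before to 50 after the start) were found for 66 of the 82 members. The letters TATAAA, searched on both strands, were present in 10 of 29 ligand promoters (34.48%), 1 of 32 receptor promoters (3.125%) and 3827 of all 27025 promoters (14.16%). Within 25 to 35 bases before the start on the gene's own strand, the place of a TATA box, it was found in 6 of 29 ligands (20.7%), 0 of 32 receptors, 1 of 3 binders (33.3%) and 1.96% of all promoters. This motif and this interval were chosen after the data and the promoters had been seen, and the shares are descriptions. The 7 members with the motif in that interval are printed from 50 bases before to 10 after the start, with TATAAA in capitals, and Il6st, the receptor gene with the largest fall, for contrast.
Il13 (chr11:53634693-53634752, minus strand): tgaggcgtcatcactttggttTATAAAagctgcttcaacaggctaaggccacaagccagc
Il1a (chr2:129309963-129310022, minus strand): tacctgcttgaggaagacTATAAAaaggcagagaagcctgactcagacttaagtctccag
Il1b (chr2:129371130-129371189, minus strand): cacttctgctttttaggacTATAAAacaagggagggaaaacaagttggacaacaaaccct
Il2 (chr3:37125945-37126004, minus strand): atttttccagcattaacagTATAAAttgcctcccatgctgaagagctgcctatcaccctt
Il17a (chr1:20730855-20730914, plus strand): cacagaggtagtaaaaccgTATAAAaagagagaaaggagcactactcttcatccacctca
Il17f (chr1:20784261-20784320, minus strand): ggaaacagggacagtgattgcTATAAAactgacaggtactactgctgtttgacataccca
Il13ra2 (chrX:147429183-147429242, minus strand): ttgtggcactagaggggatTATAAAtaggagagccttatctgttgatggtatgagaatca
Il6st (chr13:112464020-112464079, plus strand): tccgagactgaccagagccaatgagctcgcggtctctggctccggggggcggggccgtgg
The motif began 29 to 32 bases before the start in these 7 genes, which include members that were higher (Il13) and lower (Il13ra2) in mature mTEC. The STAT motif TTCNNNGAA, which reads the same on both strands, was in 13.79% of ligand, 9.375% of receptor and 8.466% of all promoters. The median ratio of observed to expected CpG was 0.2022 in ligands, 0.3021 in receptors and 0.3885 in all promoters.

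At equal depth, mature mTEC held transcripts of more interleukin genes than immature mTEC, as they did of genes in general. After thinning every library to 1506134 counts, 73 to 78 members (median 75.5) had a count in the 8 mature libraries and 55 to 63 (median 58.5) in the 8 immature libraries, with no overlap. Of the 34688 Ensembl genes with a count in some library, 62.5% to 65.2% had one in the thinned mature and 51.2% to 55.0% in the thinned immature libraries, also without overlap. For ligands the numbers were 33 to 37 of 38 in mature and 19 to 24 in immature mTEC. For receptor chains they were 34 to 37 and 32 to 34 of 38, a smaller gap than for the ligands. Without normalization for gene length, ligands together made 889 to 1072 CPM in mature and 534 to 664 CPM in immature mTEC. Receptor chains made 1782 to 1935 CPM in mature and 2015 to 2469 CPM in immature mTEC, an order that rested on Il6st alone. Without Il6st, left out after seeing the data, they made 1693 to 1861 CPM in mature and 1439 to 1590 CPM in immature mTEC, and the mature sum was higher in 8 of 8 mice.

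**Figure D1:**
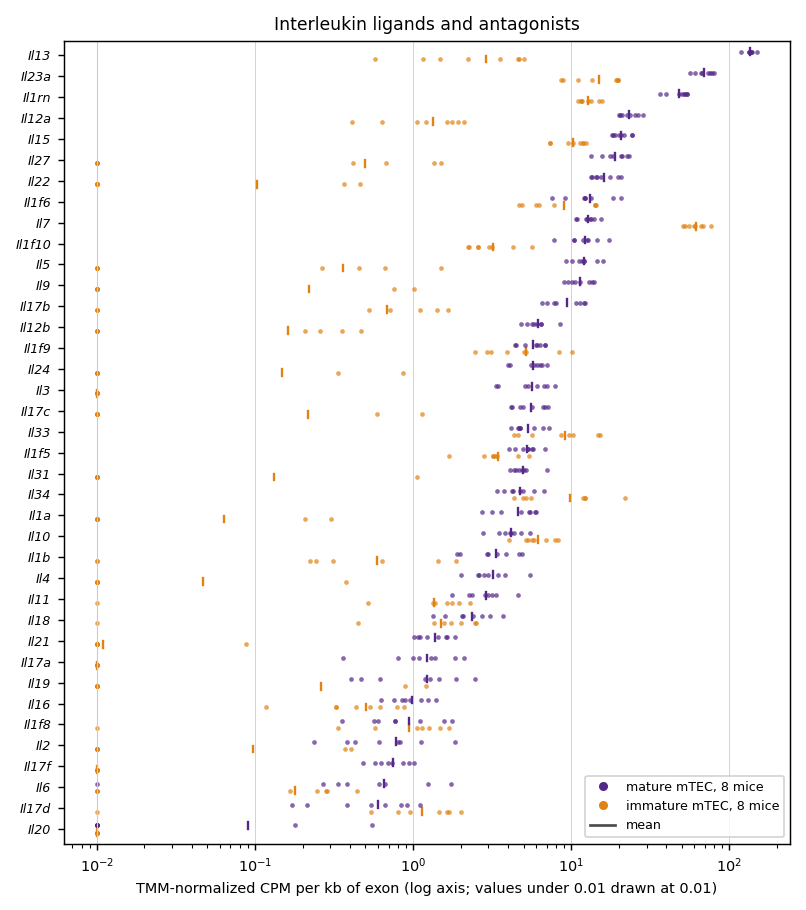
TMM-normalized CPM per kb of exon (log axis) of the 38 ligands and antagonists in 8 mature (violet) and 8 immature (orange) libraries, with the mean as a bar and values under 0.01 drawn at 0.01. Most ligands have the violet points to the right of the orange ones, and Il7 has them to the left.

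Ligand levels were compared with each other per kb of exon. In mature control mTEC, Il13, a type 2 cytokine, was the highest at 130 ± 7.37 CPM per kb (SD, n = 4 mice). Il23a, the specific chain of IL-23, followed at 67.1 ± 8.75, and Il1rn, the antagonist of the IL-1 receptor, at 47.7 ± 7.63, without overlap between neighbors in this order. Il12a (22.5 ± 2.68) and Il27 (20.7 ± 1.70), chains of IL-12 or IL-35 and of IL-27, overlapped with each other. In immature control mTEC, Il7 led at 62.7 ± 10.9 CPM per kb and did not overlap with the next, while Il23a (16.1 ± 4.47), Il1rn (11.9 ± 0.983), Il15 (11.05 ± 1.34) and Il34 (8.51 ± 4.10), a ligand of the CSF1 receptor, overlapped with their neighbors.

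Among receptor chains, Il13ra1 had the highest mean level per kb in both populations. Il13ra1, a chain of the IL-13 receptor, was at 46.3 ± 2.15 CPM per kb in mature control mTEC, where Il4ra (46.0 ± 5.17), its partner chain, and Il11ra1 (45.0 ± 4.42), the specific chain for IL-11, overlapped with it. Il18r1 (33.5 ± 2.50) and Il20rb (24.7 ± 2.80), chains for IL-18 and for cytokines of the IL-10 family, followed. In immature control mTEC the order was Il13ra1 (76.9 ± 14.3), Il6st (66.4 ± 15.7), Il11ra1 (45.4 ± 2.19), Il4ra (34.3 ± 0.968) and Il2ra (22.8 ± 2.53), the alpha chain for IL-2. Il13ra1 and Il6st overlapped there, as did Il2ra and the next chain in order.

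**Figure D2:**
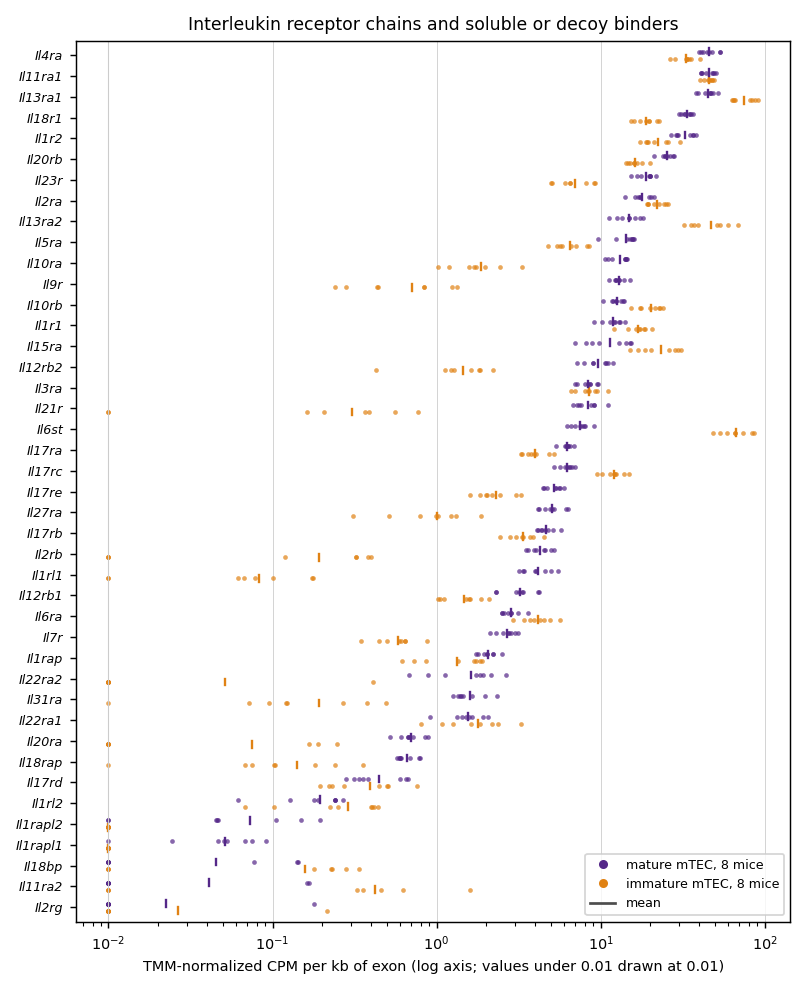
TMM-normalized CPM per kb of exon (log axis) of the 38 receptor chains and 4 binders in 8 mature (violet) and 8 immature (orange) libraries, with the mean as a bar and values under 0.01 drawn at 0.01. Il11ra1 has overlapping levels in both populations, and Il6st lies far to the right in immature mTEC.

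The common gamma chain was nearly unread although its partner chains were measured. Il2rg (chrX:101264378-101268255) had 3 counts in all 16 libraries, 2 of them in 1 mature control library and 1 in an immature tKO library. In the 4 mature control libraries Il4ra had 319, 269, 273 and 244 CPM, Il7r, the specific chain for IL-7, 13.9, 9.85, 10.7 and 11.8 CPM, and Il9r, that for IL-9, 60.4, 64.2, 55.3 and 64.2 CPM. Of the exonic bases of Il2rg, 30.5% also belong to Gm20489 in the annotation, and how the counting treated shared bases was not tested. Csf2rb, the common beta chain used by the receptors of IL-3 and IL-5, had 0 counts in the 8 control libraries.

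Maturity was compared within the control mice, with line as a covariate. Of the 82 members, 32 were higher and 4 lower in mature mTEC, 26 were tested and not called, and 20 were too low to be tested (edgeR quasi-likelihood test, Benjamini-Hochberg adjusted p under 0.05 and absolute log2 fold change over 1). Over all 15357 features tested, 23.7% were called higher and 10.8% lower in mature mTEC. Of the ligands 18 were higher and only Il7 was lower, and of the receptor chains 13 were higher and 2 lower. The median log2 fold change of the tested members was 3.07 in ligands, 0.79 in receptor chains and 0.02 in all features. A member near 0 in immature mTEC passes the filter on low counts through mature mTEC alone and then has to differ. With at least 10 counts required in every library, 30 members were left in the controls, and 8 were higher and 3 lower, while 9.54% of the 11071 features left were higher and 9.86% lower. Over the 8 mice of both genotypes, 22 ligands lay above in all 8 mature libraries and 1 below, and 18 receptor chains lay above and 4 below, while 16.2% of all Ensembl genes with a count lay above and 8.16% below. In bulk samples, fewer cells of a type and less RNA per cell cannot be told apart.

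Markers of other cells moved with maturity. The 5 myeloid markers (Itgax, Csf1r, Cd68, Adgre1 and Lyz2) summed to 262 to 353 CPM in mature and 16.8 to 26.9 CPM in immature control mTEC. The 6 thymocyte markers summed to 47.8 to 57.9 and 3.42 to 23.2 CPM, and the 3 B cell markers to 12.5 to 20.8 and 0 to 2.56 CPM. The 4 innate lymphoid and NK markers were at 13.7 to 22.6 and 10.3 to 16.1 CPM, with Ncr1 and Klrb1c at 0 in immature mTEC. All 5 myeloid and 6 thymocyte markers had counts in both populations of the controls. The 7 tuft cell markers were lower in mature mTEC, with 175 to 273 against 559 to 1126 CPM. The 4 fibroblast markers were at 284 to 358 CPM in mature mTEC, and in immature mTEC at 185 and 392 CPM in the Rbfox1 line and 1494 and 1177 CPM in the Rbfox2 line. The 3 endothelial markers were at 22.2 to 22.8 and 19.2 to 105 CPM. Of the 7 mTEC markers, Aire and Cd80 were higher in mature mTEC, Krt5 and Krt14 were lower, and Ccl21a had no count there. The part of these cells in the interleukin values was not tested. With the Rbfox1 line alone, chosen after seeing the fibroblast values, 32 members were higher and 4 lower, against 24.7% and 9.89% of all features. With the Rbfox2 line alone the numbers were 34 and 4, against 24.9% and 12.3%.

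Il7 (ENSMUSG00000040329, chr3:7569994-7613760), the thymocyte survival factor, was the only ligand called lower in mature mTEC of the controls. The 4 immature control libraries had 316, 296, 433 and 376 CPM and the 4 mature ones 60.8, 74.3, 79.5 and 76.0 CPM, with no overlap. The log2 fold change was -2.27 ± 0.0892 (SE; edgeR adjusted p = 6.79e-11). Within the lines it was -2.17 (Rbfox1) and -2.36 (Rbfox2).

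Il6st (ENSMUSG00000021756, chr13:112464070-112510086) fell the most of the receptor chains. Immature control libraries had 652, 540, 932 and 822 CPM, and mature ones 85.5, 89.5, 101 and 83.6 CPM. This is a log2 fold change of -3.00 ± 0.113 (SE; edgeR adjusted p = 4.59e-11), and it was -2.76 in the Rbfox1 line alone. Il13ra2, a decoy receptor that binds IL-13, went from 80.7, 73.3, 122 and 157 CPM to 39.9, 25.7, 34.1 and 41.2 CPM (log2 fold change -1.56 ± 0.161, edgeR adjusted p = 1.02e-06). Il15ra, which presents IL-15 to neighboring cells, went from 117, 131, 82.7 and 66.9 CPM to 57.4, 63.8, 43.6 and 30.9 CPM. Its log2 fold change of -1.01 ± 0.111 (edgeR adjusted p = 1.90e-06) was so near the fold threshold that the call was lost under several alternatives, with values down to -0.86. Il15 itself was at 26.9, 28.1, 21.6 and 23.3 CPM in immature and 46.7, 55.3, 40.8 and 42.7 CPM in mature mTEC (log2 fold change 0.90 ± 0.116), below the threshold.

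**Figure D3:**
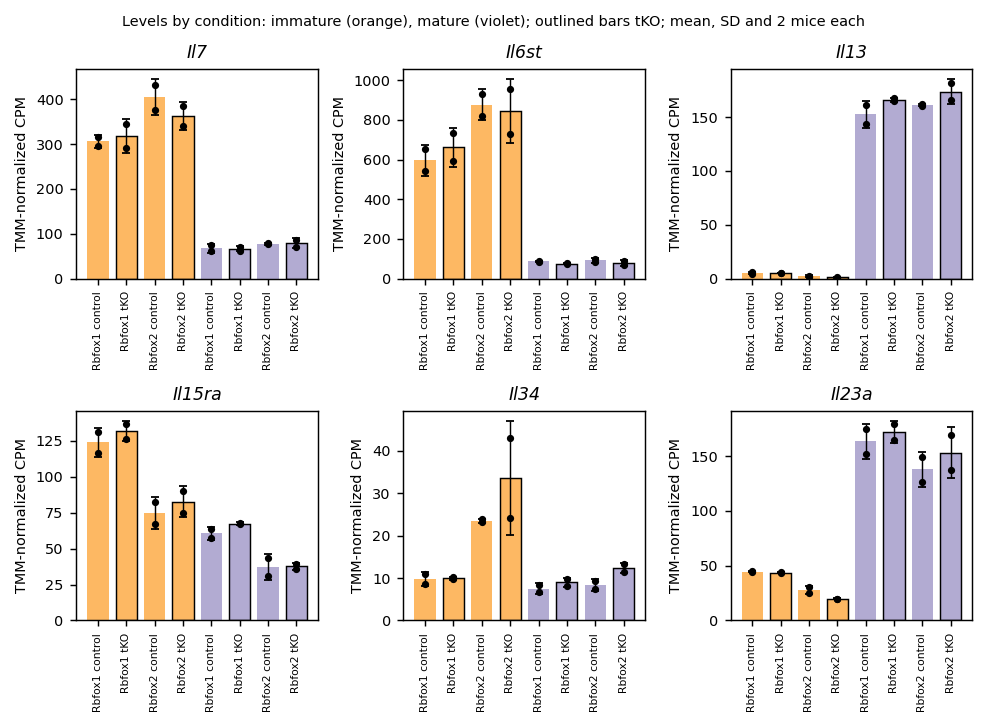
TMM-normalized CPM of 6 members in the 8 conditions, immature in orange and mature in violet, tKO bars outlined, as the mean with SD and 2 mice as points. Il7 and Il6st are high in every immature condition, and Il13 and Il23a in every mature one. Il15ra differs between the lines in both populations, and Il34 and Il23a in immature mTEC.

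Il13 (ENSMUSG00000020383, chr11:53631324-53634702) was the ligand with the highest level per kb among those that rose. The mature control libraries had 162, 144, 162 and 161 CPM and the immature ones 4.27, 6.11, 2.70 and 1.79 CPM. The log2 fold change was 5.31 ± 0.172 (SE; edgeR adjusted p = 1.18e-11). Il13 passed the filter on low counts through mature mTEC, so this p-value is not separate support for the rise. Il1rn went from 64.9, 73.7, 61.1 and 63.9 CPM to 291, 201, 279 and 286 CPM (log2 fold change 2.0 ± 0.121), without overlap. Il23a stood at 44.4, 44.8, 24.9 and 30.5 CPM in immature and 175, 152, 149 and 127 CPM in mature mTEC. Il12a, which pairs with Il12b in IL-12, stood at 2.99, 3.26, 1.08 and 1.79 CPM and at 44.8, 38.1, 35.7 and 34.6 CPM.

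Several ligands, among them cytokines of activated leukocytes, had only 0 to 2 counts over the 4 immature control libraries. Il10 went the other way, with 60 counts in these libraries, and was lower in mature mTEC in 7 of the 8 mice, but it was not called. Il27 had 1 count over the 4 immature control libraries and 376 over the mature ones, a ratio of 176 (95% exact counting interval 31.4 to 6974). Il22, which acts on epithelia, had 1 and 336 counts (157, interval 28.1 to 6234). The eosinophil growth factor Il5 had 1 and 329 counts (154, interval 27.5 to 6104), and Il12b 1 and 204 counts (95.5, interval 16.96 to 3792). These intervals cover counting error only, and each of these control ratios rests on 1 immature count. In the tKO mice the immature counts were 6 for Il27, 8 for Il5 and 4 for Il12b, and the ratios were lower, at 21.1, 16.5 and 22.4, while Il22 again had 1 count and a ratio of 119. Il1a, an alarmin, and Il24, of the IL-10 family, had 2 and 150 counts each (35.1, interval 9.56 to 293), and Il9, a mast cell growth factor, had 2 and 118 (27.6, interval 7.48 to 231). Il21, a cytokine of follicular helper T cells, had 0 and 125 counts, which is at least 19.5-fold higher in mature mTEC against a floor of 3 counts over the group. Il3 and Il4, named after their values were seen, also had 0 counts in immature control mTEC and 61 and 62 counts in mature mTEC, at least 9.52-fold and 9.68-fold higher, but were not tested.

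The receptor chains with the largest rise were Il1rl1, Il21r and Il9r. Il1rl1, the receptor of IL-33, had 23.7, 37.7, 27.3 and 27.95 CPM in mature and 0.427, 1.22, 0.540 and 1.19 CPM in immature control mTEC (log2 fold change 5.07 ± 0.335, edgeR adjusted p = 9.36e-09). Il21r, the specific chain for IL-21, had 30.4, 22.5, 30.1 and 23.8 CPM against 1.28, 1.22, 0.540 and 0 CPM (4.95 ± 0.348, edgeR adjusted p = 1.75e-08). Il9r rose by 4.30 ± 0.237 on the log2 scale from 2.14, 6.11, 2.16 and 1.19 CPM in immature mTEC (edgeR adjusted p = 1.52e-09). Il7r rose as its ligand fell, by 2.14 ± 0.277, from 2.99, 2.85, 1.62 and 2.99 CPM in immature mTEC (edgeR adjusted p = 9.13e-06). All these chains passed the filter on low counts through mature mTEC alone, so their p-values are not separate support for a rise.

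Several members known from the thymus or from stroma did not pass the fold threshold. Il4ra had a log2 fold change of 0.43 ± 0.0778 and Il10rb, a chain shared by IL-10 and IL-22, of -0.67 ± 0.113. The alarmin Il33 had 13.2, 24.8, 29.7 and 28.1 CPM in immature and 13.7, 19.1, 16.8 and 13.2 CPM in mature control mTEC (log2 fold change -0.57 ± 0.219). Il34 had 8.54, 10.99, 23.2 and 23.9 CPM in immature and 8.45, 6.64, 9.33 and 7.36 CPM in mature mTEC (-0.97 ± 0.245). In the Rbfox1 line alone Il34 was at -0.36 (edgeR adjusted p = 0.360), and in the Rbfox2 line alone at -1.47 (adjusted p = 0.000302), and this difference was not tested in that form. The high immature values of Il34 were in the Rbfox2 line, whose immature libraries also had more of the fibroblast markers. The part of such cells in these values was not tested. Il18, an inflammatory cytokine of the IL-1 family, was at 1.63 to 3.17 CPM in mature and 0 to 2.56 CPM in immature control mTEC and was not tested.

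**Figure D4:**
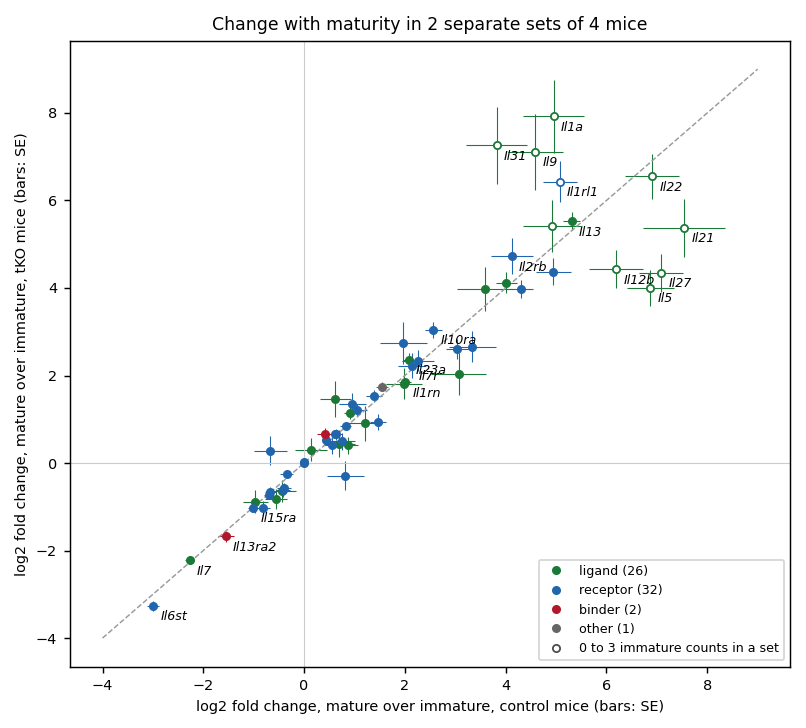
Log2 fold change of mature over immature mTEC in control mice (x axis) and tKO mice (y axis) for the 61 members tested in both, with SE bars, colored by class, and the line of equal change dashed. Il6st, Il7 and Il13ra2 lie low in both, and the open points, whose immature counts were 3 or fewer in a set, scatter far from the line at the high end.

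The same comparison in the 4 tKO mice used no library of the first. There 33 members were higher and 5 lower, and over all 15189 features 23.2% were higher and 11.5% lower. Il6st fell by 3.26 ± 0.118 and Il7 by 2.22 ± 0.0948 on the log2 scale (edgeR adjusted p = 7.00e-13 and 4.51e-12). Il13, which again passed the filter through mature mTEC, rose by 5.53 ± 0.208 (edgeR adjusted p = 1.03e-12). Of the 61 members tested in both sets of mice, 33 were called in both and in the same direction. The share of all features called in both is not given here. Members near 0 in immature mTEC pass the filter through mature mTEC in each set, so their shared direction is not separate support. Il11, Il17c and Il17re were called in controls alone and Il12rb1, Il15, Il16, Il17rc and Il22ra2 in tKO mice alone. No member of the 65 tested was called for a difference between genotypes in its change with maturity (edgeR interaction, adjusted p), nor was any feature (0.0% of 17442). Unadjusted p was under 0.05 in 5 members (Il17rd, Il17re, Il22ra1, Il23a and Il27) and in 5.2% of all features, and DESeq2 called 0 members, with 1 at an unadjusted p under 0.05.

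Genes of interleukin signaling were read from lists. Of 25 genes of the JAK-STAT pathway, which carries the signal of most interleukin receptors, 24 were tested in controls, and none was higher and 4 were lower in mature mTEC, where 23.7% of all features were higher and 10.8% lower. Among them were Stat2 (log2 fold change -1.81 ± 0.110), known for interferon signaling, and the feedback inhibitors Socs3 (-1.06 ± 0.0904) and Socs5 (-1.30 ± 0.191). The median of the list was -0.13, against 0.02 in all features. Of 18 genes of IL-1 and IL-17 signaling and IL-1 processing, 7 were higher and 1 lower, to be read against the same shares. Among them were Casp1, the protease that matures IL-1 beta (1.34 ± 0.0923), the inflammasome sensor Nlrp3 (2.89 ± 0.404), and Irak3, an inhibitor of IL-1 receptor signaling (-3.57 ± 0.214). The median of that list was -0.01.

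Of 18 related cytokines and chains without an Il symbol, 12 were tested, with a median log2 fold change of -0.34. Of these 5 were higher and 4 lower, where 23.7% of all features were higher and 10.8% lower. Ebi3, which pairs with Il27 in IL-27, was higher (4.12 ± 0.258), and so was the epithelial cytokine Tslp (4.91 ± 0.654), which had at most 1 count in any immature control library. Tslp thus passed the filter on low counts through mature mTEC alone. Lifr and Osmr, which signal together with Il6st, were lower (-4.35 ± 0.107 and -2.61 ± 0.118). Lifr went from 691 to 1042 CPM in immature to 30.4 to 48.3 CPM in mature control mTEC. Csf1r, also among the 5 higher genes, is a myeloid marker.

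The tKO and control libraries of each line were then compared for the interleukin genes. As a check, the Rbfox2 tKO libraries had 35 and 70 (mature) and 54 and 34 (immature) counts of Rbfox2 against 247 and 231 and 195 and 157 in their controls. Its log2 fold change was -2.14 ± 0.173 in mature and -1.69 ± 0.191 in immature mTEC (edgeR adjusted p = 1.31e-06 and 0.000526). Rbfox1 was at 33.9 and 29.7 CPM in mature libraries labelled Rbfox1 tKO and at 52.2 and 48.2 CPM in their controls (log2 fold change -0.66 ± 0.135, edgeR adjusted p = 0.242). In immature mTEC it was at 151 and 152 CPM against 163 and 159 CPM (-0.09 ± 0.111, edgeR adjusted p = 0.947). The level of Rbfox1 thus does not bear out the tKO label in immature mTEC, and in mature mTEC its difference was not called. Counts cover the whole gene, so transcripts that lack only the floxed part would still be counted. Directions given for the Rbfox1 line hold for libraries by their label. No member was called in any of the 6 comparisons of tKO with control (edgeR). DESeq2 also called 0, with 0 or 1 members at an unadjusted p under 0.05 in each. Of all features, 0.0166% were called in mature and 0.0306% in immature mTEC of the Rbfox1 line, 0.0277% and 0.0536% in the Rbfox2 line, and 0.0166% and 0.0306% over both lines. The 67 members tested in mature mTEC had log2 fold changes between -0.65 and 0.81 in the Rbfox1 line and between -0.94 and 1.32 in the Rbfox2 line. The 40 tested in immature mTEC ranged from -1.46 to 0.85 and from -1.20 to 0.81. Each group had 2 mice, and a miss does not show that levels were equal.

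**Figure D5:**
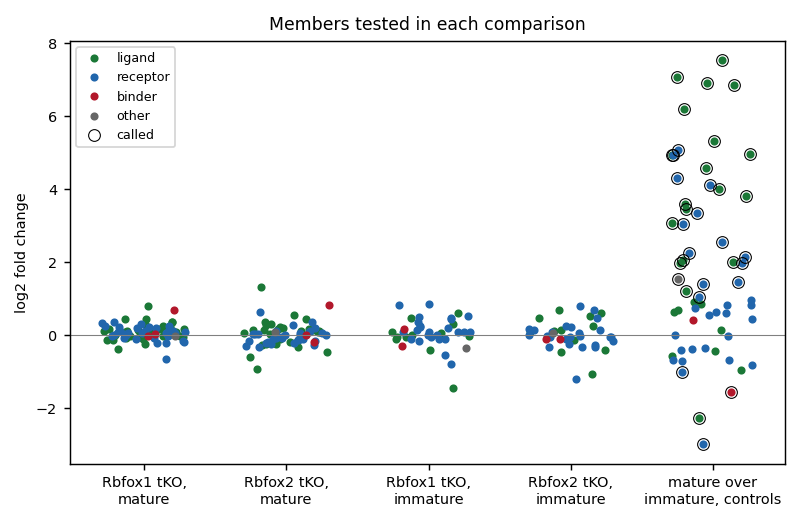
Log2 fold change of the members tested in the 4 comparisons of tKO with control and in mature over immature control mTEC, colored by class, with called members ringed. The tKO columns have no ring and range from -1.46 (Il16) to 1.32 (Il6). The maturity column reaches 7.54 in Il21, which had 0 counts in immature control mTEC, so this value is not a measured ratio.

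At an unadjusted p under 0.05 the members were about as frequent as all features. In mature mTEC of the Rbfox1 line these were 3 members (3.35% of all features), Il13ra1 (log2 fold change -0.22 ± 0.0916), Il1b (0.81 ± 0.348) and Il20rb (0.25 ± 0.102). Il1b, the inflammatory cytokine, had 7.38 and 5.65 CPM in libraries labelled Rbfox1 tKO and 3.80 and 3.64 CPM in their controls. In immature mTEC they were 3 members (5.9%), Il16 (-1.46 ± 0.689), Il6ra (0.46 ± 0.211) and Il4i1 (-0.35 ± 0.131), of which Il4i1 shares 86.3% of its exonic bases with other genes. In the Rbfox2 line they were 4 members in mature mTEC (5.34%), Il11 (-0.94 ± 0.333), Il24 (-0.60 ± 0.280), Il34 (0.56 ± 0.254) and Il10ra (0.35 ± 0.138). Il11 had 4.88 and 3.67 CPM in tKO and 9.56 and 6.62 CPM in control mice. In immature mTEC of that line they were 3 members (6.25%), Il33 (0.60 ± 0.249), Il4ra (-0.27 ± 0.118) and Il1rn (0.46 ± 0.143). Il1rn had the smallest p of the tKO comparisons, with 83.4 and 86.7 CPM in tKO and 61.1 and 63.9 CPM in control mice (edgeR adjusted p = 0.588).

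Over both lines, Il6st (-0.23 ± 0.0839), Il34 (0.41 ± 0.182) and Il22ra2 (0.74 ± 0.310) had an unadjusted p under 0.05 in mature mTEC (4.49% of all features) and Il1f5 (0.55 ± 0.245) and Il17re (0.50 ± 0.224) in immature mTEC (7.47%). No member was called for a difference of the tKO effect between the lines (edgeR interaction). In mature mTEC 0.00555% of all features were called and 4 members against 4.66% of features had an unadjusted p under 0.05, and in immature mTEC 0.00766% were called and the numbers were 4 members and 4.43%. DESeq2 called 0 members in either, with 0 at an unadjusted p under 0.05.

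Of the signaling genes, Jak3 was called in a tKO comparison. It encodes the kinase that binds the common gamma chain. In immature mTEC of the Rbfox2 line Jak3 had 139 and 127.3 CPM in tKO and 58.4 and 68.1 CPM in control mice, without overlap (log2 fold change 1.09 ± 0.139, edgeR adjusted p = 0.00157). Without Rbfox2 control 1 the adjusted p was 0.103 and the log2 fold change 0.98. In mature mTEC of that line it was 0.60 ± 0.137 (edgeR adjusted p = 0.234), and in immature mTEC of the Rbfox1 line -0.01 ± 0.131. The difference between the lines in immature mTEC was -1.11 ± 0.192 (edgeR interaction, adjusted p = 0.113), so a difference is not shown. Exons at the end of Jak3 overlap Insl3 on the same strand in the annotation, and how reads were divided between them was not tested.

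The lines differed in some interleukin genes, which was asked after seeing the data, with genotype as a covariate. Line goes with litters, mice and possible differences in handling, which cannot be told apart. In mature mTEC no member was called, while 0.782% of all features were higher and 0.272% lower in the Rbfox1 line. At an adjusted p under 0.05 without a fold threshold there were 6 members of 67 tested, against 13.5% of all features, led by Il15ra, with a log2 difference of 0.76 ± 0.0985 between the Rbfox1 and the Rbfox2 line (edgeR adjusted p = 3.02e-05). DESeq2 also called 0, with 12 members at an unadjusted p under 0.05, against 16 in edgeR, where 28.0% of all features had one. In immature mTEC 1 member was called higher and 2 lower in the Rbfox1 line, and 3.08% and 1.92% of all features were.

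Il34 differed the most in that direction, with 8.54, 10.99, 10.2 and 9.68 CPM in the Rbfox1 and 23.2, 23.9, 43.1 and 24.1 CPM in the Rbfox2 line (log2 difference -1.50 ± 0.218, edgeR adjusted p = 7.82e-05). Il33 was at 13.2, 24.8, 12.5 and 16.3 CPM and at 29.7, 28.1, 43.8 and 42.7 CPM (-1.07 ± 0.216, edgeR adjusted p = 0.00151). Il13 was higher in the Rbfox1 line, at 4.27, 6.11, 5.54 and 5.61 CPM against 2.70, 1.79, 1.39 and 0.688 CPM (1.63 ± 0.453, edgeR adjusted p = 0.0140). These rest on 10, 15, 12 and 11 against 5, 3, 2 and 1 counts. Il13 thus passed the filter on low counts through the Rbfox1 line, so this p-value is not separate support for a difference. All 3 called members had no overlap between the lines, but they were picked by their calls on these same values. Members that were not called also had none, such as Il23a, at 43.3 to 44.8 CPM in the Rbfox1 and 19.5 to 30.5 CPM in the Rbfox2 line. The share of all features without overlap is not given here. The fibroblast markers were at 185 to 453 CPM in the immature libraries of the Rbfox1 line and at 1177 to 1901 CPM in those of the Rbfox2 line, the endothelial markers at 19.2 to 51.3 and 57.9 to 183 CPM, and the tuft cell markers at 559 to 1000 and 911 to 1126 CPM. Their part in these differences was not tested.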

How the data were processed

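Per the labels, polyA RNA was sequenced with a stranded, paired-end protocol. The authors deposited counts of reads per gene in 1 table, without normalization. Per the submitters' processing notes and the column names, HISAT2 2.1.0, Picard 2.10.9 and featureCounts 1.6.0 were used with build mm10, and reads were de-duplicated and down-sampled to 14500000 (mature) or 10000000 (immature). Down-sampling to different numbers makes raw detection differ between populations, hence the thinning. How the counting used strand: not given in the sources used here. No column was left unmapped (0). Symbols, coordinates and exon lengths came from GENCODE M21 (GRCm38).

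Everything else was computed from the counts. edgeR 4.0.16 in R 4.3.3 was run on the whole table with TMM, filterByExpr at a minimum count of 10, the quasi-likelihood test and Benjamini-Hochberg adjustment. A gene was called at adjusted p under 0.05 and absolute log2 fold change over 1, and interactions at the adjusted p alone. SE is the log2 fold change divided by the square root of F. The tKO comparisons used all 8 libraries of a population. Levels used 1 set of TMM factors. Thinning and promoter searches used Python 3.11.15 and numpy 2.4.6. The tests were tried on simulated data.

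The members and gene lists were chosen with earlier results of these data known. Folds are printed for members called (the 12 largest where more were called in a direction), for 12 members known from the thymus, and, in tKO comparisons, for members at an unadjusted p under 0.05. The other named values are levels, counts and list genes, and some list genes are not reported here by name.

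Each mouse gave 1 mature and 1 immature library, as its number in the labels shows, and their deviations from the means of the conditions correlated by 0.0885 to 0.164. A tKO and a control mouse that share a number share line and sex (0.0357 to 0.147). Each condition had 1 female and 1 male, whose deviations mirror each other, so these correlations cannot tell mouse from sex. Replicates differed by more than counting noise (chi-square 1.78 to 2.74 per degree of freedom). Alternatives were DESeq2 1.42.0, its size factors, library totals, other filters, no fold threshold, the replicate block, all 16 libraries in 1 fit and each mouse or library left out. The comparison of the lines, each line alone, the TATAAA motif and CpG content were added after seeing the data.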

Additional observations from a re-analysis of the deposited data

Results flagged for a closer look

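In 83 groups of 4 mice examined, 4 had 1 library set apart from the other 3 by Dixon's criterion, near the 1 in 20 that chance gives. In mature control mTEC, Rbfox1 control 3 was the lowest for Il13, at 144 CPM, and for Il1rn, at 201 CPM. In mature tKO mTEC, Rbfox2 tKO 2 was the highest for Il13, at 182 CPM. In immature control mTEC, Rbfox2 control 1 was the lowest for Il7r, at 1.62 CPM.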

How the results depend on the processing

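In immature mTEC 42 members were too low to be tested in tKO comparisons. At equal depth 38 to 45 members had at least 5 counts there and 61 to 65 in mature mTEC. Of the 34688 Ensembl genes with a count in some library, 37.0% to 39.1% had as many in immature and 43.5% to 44.9% in mature mTEC, also without overlap. At least 5 counts is another criterion than the filter, and the part of depth was not tested. Each of the counts of members called in the tKO comparisons and interactions was 0 under all alternatives run. With the replicate block, the control comparison of maturity called 36 members and the tKO comparison of maturity 38, as without it, and the tKO comparisons and interactions 0. DESeq2 called 36 and 37. At least 10 counts in every library left 11 called members in the control and 11 in the tKO comparison, because fewer members were tested. In the comparison of the lines in mature mTEC, 6 members were called with no fold threshold, 1 with no filter, and 0 to 1 without 1 library (1 without Rbfox1 tKO 2). In immature mTEC 13 were called with no fold threshold and 1 to 4 without 1 library (1 without Rbfox2 tKO 2). The share of all features called there without a fold threshold is not given here, so the 13 cannot be set against it. There Il13 lost its call with DESeq2 (adjusted p = 0.0655) and without Rbfox1 control 3 or Rbfox2 tKO 2 (edgeR adjusted p = 0.0526 and 0.0553), and Il33 with library totals and without each of 4 libraries, with log2 differences from -0.99 to -0.89. Of the named members' values under alternatives, 797 kept their call or lack of it, 28 lost a call and 9 gained one, and no direction was reversed. The causes were not tested. The losses in maturity were of Il15ra, Il17rc and Il15, and the gains of Il15, Il33 and Il34.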
